A study of Mus musculus with 3 samples.

Results

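Macrophages and dendritic cells of mouse skin were taken from single-cell RNA sequencing libraries by marker genes. A cell entered when it held a UMI (a unique molecular identifier, 1 counted RNA molecule) in at least 2 of Cd68, Lyz2, Csf1r, Adgre1, Cd209a, C1qa, C1qb and Itgax. It also had to have fewer than 2 of the T cell genes Cd3d, Cd3e, Cd3g, Trac and Trbc2, and under 1% of its UMIs in keratin genes. This rule chose 205 of the 26847 kept cells, with 40 from the library labelled Neg, 93 from AA and 72 from AA+Ab. The cells were thus picked by measured values, so the levels of these 8 marker genes are given as a description.

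The study compared dorsal skin of female C3H/HeN mice at 25 weeks of age. Neg was the vehicle control, which the series text calls unaffected. AA was a model of alopecia areata, an autoimmune hair loss, made by transferring skin-draining lymph node cells from affected donors into C3H/HeN recipients. AA+Ab was the same model given an antibody that neutralizes CXCL12, a chemokine that acts on the receptor CXCR4. Each group was 1 library from the pooled skin of 7 to 8 mice, digested with collagenase and cleaned on a density gradient. With 1 library per group no difference between groups could be tested, and the intervals below are exact 95% intervals for counting error only. They do not cover the spread between mice.

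Skin macrophages live mainly in the dermis, where they take up debris through scavenger and Fc receptors and make complement. Dendritic cells carry antigen on MHC class II to T cells, and Langerhans cells, marked by langerin (Cd207), are the antigen-presenting cells of the epidermis. Interferon-gamma from T cells acts on all of these cells, in part through IRF1, and induces guanylate-binding proteins, immunity-related GTPases, antigen presentation and the chemokines CXCL9 and CXCL10.

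The 3 libraries held 6965, 10879 and 10507 barcodes (Neg, AA and AA+Ab, here and below in this order) and 121289374, 137290217 and 141998364 UMIs. Between 17 and 28 barcode sequences occurred in a pair of libraries, and 0 of these belonged to a chosen cell. The chosen cells were shallower than the average skin cell. Their median depth was 5789, 5017 and 3339.5 UMIs, against 13694.5, 11177 and 11371 UMIs over all kept cells. Because the AA+Ab cells were the shallowest, shares of cells with a UMI were also computed after thinning every cell with at least 1000 UMIs to 1000. For the gene lists this left out 0, 3 and 1 chosen cells that were shallower.

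The chosen cells were 0.608% of the kept cells in Neg (Clopper-Pearson interval 0.435 to 0.827), 0.891% in AA (0.720 to 1.09) and 0.732% in AA+Ab (0.573 to 0.921). These 3 intervals overlapped. For the 164 cells described below, left after 2 clusters were set aside, the shares were 0.441% (0.295 to 0.632), 0.805% (0.643 to 0.996) and 0.519% (0.386 to 0.681), and the intervals of Neg and AA did not overlap. Which share is compared thus depends on the cells counted, and with 1 library per group neither difference was tested. Just inside the rule, 14, 36 and 44 cells held exactly 2 of the 8 markers, and 26, 57 and 28 held 3 or more. Just outside it, 126, 133 and 157 cells held 1 marker, and 6, 6 and 10 further cells with enough markers had 1% to 2% of their UMIs in keratins. After thinning to 1000 UMIs the shares were 0.286%, 0.522% and 0.341%.

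The rule's own markers are given as a description, since the rule fixed their contrast with other cells. Lyz2, a lysozyme of myeloid cells, was detected in 80% of the chosen Neg cells, 87.1% of the AA cells and 79.2% of the AA+Ab cells. Csf1r, the macrophage growth factor receptor, was found in 42.5%, 50.5% and 44.4% of the chosen cells. C1qb, a subunit of complement C1q, was the rarest of the 8 markers in each library, in 5%, 19.4% and 6.94% of the cells. Cd209a, a lectin of dendritic cells, and Adgre1 (F4/80), a macrophage marker, were found together in 4, 11 and 9 cells, and 13, 28 and 35 cells held neither. The label was checked against genes that the rule did not use. After thinning to 1000 UMIs, at least 2 of 10 monocyte genes were seen in 45%, 55.6% and 47.9% of the chosen cells and in 2.89%, 9.36% and 8.49% of T cells. Without thinning, at least 2 of 12 general myeloid genes were seen in 95%, 97.8% and 93.1% of the chosen cells. Keratinocytes gave 3.52%, 3.18% and 2.89%. T cells, which share several of these leukocyte genes, gave 79.2%, 86.4% and 85.3%. With thinning the chosen cells gave 87.5%, 96.7% and 90.1% for these genes, and T cells 46.0%, 52.4% and 54.4%.

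The chosen cells were not all macrophages or dendritic cells. Clustering over the 3 libraries gave 8 clusters, named where markers fixed for that purpose were among their leading genes. Cluster 6 held 18 cells, 6 from each library, led by Grip1, Cdh6, Bnc2 and Lef1, with Pmel also among its 10 leading genes. It had a median of 26064.5 UMIs and carried 43.5% of all UMIs of the chosen cells. By library, this cluster held 381640 of the 557144 UMIs in Neg, 155848 of 616201 in AA and 157407 of 425061 in AA+Ab. In it 9 of 10 keratinocyte genes and 4 of 6 melanocyte genes were detected as markers, and 6 of its cells held no general myeloid gene at all. It is called mixed here. A single Neg cell of this cluster, with 206017 UMIs, held 37.0% of the UMIs of the 40 chosen Neg cells. Cluster 5 held 23 neutrophil-like cells (5, 3 and 15), with all 8 neutrophil markers and with S100a9, S100a8 and Retnlg in the lead.

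**Figure D1:**
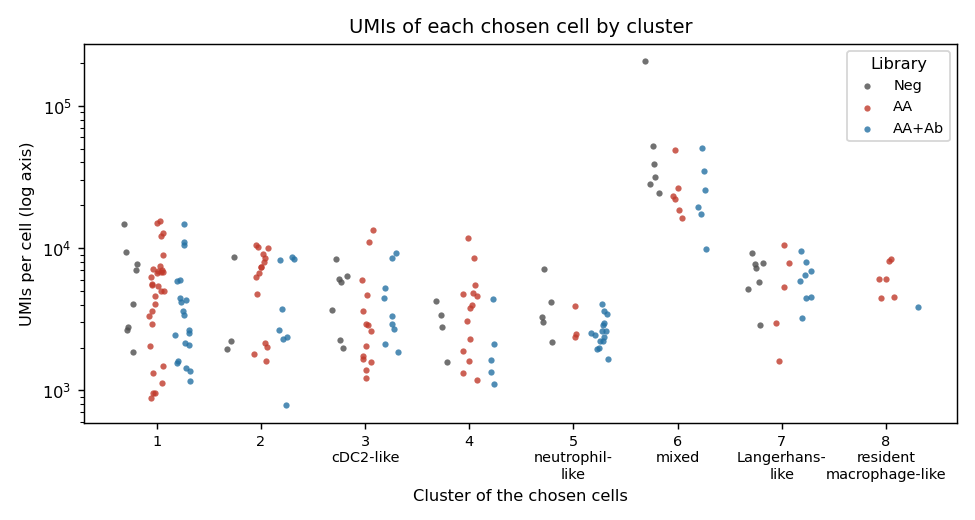
UMIs of each of the 205 chosen cells on a log axis, by cluster, with 1 point per cell coloured by library. The mixed cluster 6 sits above the others with a median of 26064.5 UMIs and reaches 206017 in 1 Neg cell, while the other clusters stay at or below 15450.

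Among the rest, cluster 7 held 20 Langerhans-like cells (7, 5 and 8), with 6 of 6 Langerhans markers. Cluster 8 held 7 resident macrophage-like cells, 6 of them from AA and 1 from AA+Ab, with 13 of 14 resident macrophage markers and with Ccl8, Pf4 and Folr2 among its leading genes. Cluster 3 held 30 cDC2-like cells (7, 14 and 9), where cDC2 are the conventional dendritic cells that feed mainly CD4 T cells. Its leading genes included Klrd1, Cd209c and Mgl2. Cluster 1 was the largest, with 58 cells (8, 30 and 20). It was led by F10, Oasl1 and Fcgr4 and carried 7 of 10 monocyte markers, but none of these were among its 10 leading genes and it was left unnamed. Clusters 2 (26 cells, led by Tnfsf9) and 4 (23 cells, led by Lyz1) were also left unnamed. Clusters held mostly by 1 library, such as 5 and 8, cannot be told apart from that library.

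Results below are given for the 164 cells outside the mixed and neutrophil-like clusters, unless all 205 are named. This set was chosen after the data were seen. It held 29 Neg, 84 AA and 51 AA+Ab cells with 155678, 451544 and 227977 UMIs, and a median depth of 5155, 4810 and 3607 UMIs. Levels are UMIs per 1000000 UMIs of the same cells (CPM), summed over the cells of a library. A gene was called higher or lower when its CPM differed at least 2 times, with counts under 3 set to 3, among genes with at least 20 UMIs in the 2 libraries. AA held the most UMIs, so a gene could pass this minimum through AA alone. Counts of list genes called are therefore a description, also where the share over all genes is given.

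Genes of the interferon-gamma response stood highest in AA. The 27 list genes measured gave 315 CPM in Neg (233 to 416, 49 UMIs), 1621 CPM in AA (1506 to 1743, 732 UMIs) and 724 CPM in AA+Ab (617 to 843, 165 UMIs). The AA level was 5.15 times that of Neg (3.85 to 7.03), and AA+Ab stood at 0.446 times AA (0.375 to 0.529) and 2.30 times Neg (1.66 to 3.23). AA+Ab thus lay between the other libraries, with no overlap of the intervals. Over all 205 cells the ratios were 8.69, 0.390 and 3.39, and the direction was the same. These sizes are a description, because the mixed cluster held the largest share of UMIs in Neg. The general myeloid list itself stood at 9105, 20122 and 15941 CPM over all 205 cells. Without the mixed and neutrophil-like clusters it stood at 28398, 25504 and 24910 CPM. The same limit holds for the other list ratios over all 205 cells. The direction for the interferon-gamma list was also the same without the Langerhans-like cells, at 4.41, 0.512 and 2.26. Without the resident macrophage-like cells the first 2 ratios were 5.07 and 0.459, again in that direction. T cells of the same libraries stood in the same order, at 349, 2280 and 685 CPM, and so did the remaining skin cells, at 195, 461 and 236 CPM.

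Of the 10 interferon-gamma genes with enough UMIs, 9 were called higher in AA than in Neg and 0 lower. Genes such as Iigp1, with 0 Neg UMIs, passed the UMI minimum through AA alone, so these counts are a description. Among all 4684 genes tested in that comparison, 10.5% were higher and 5.7% lower. The median log2 ratio of the 10 was 1.84, and over all genes 0.05. Against AA, 7 of 12 genes were called lower in AA+Ab and 0 higher, with 8.26% of all 5035 genes lower and 4.99% higher, and a median log2 ratio of -1.25 against -0.01. Against Neg, 2 of 4 genes (Irf1 and Cd274) were called higher in AA+Ab and 0 lower, where 7.67% of all 3350 genes were higher and 4.36% lower.

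Irf1, a transcription factor at the head of the interferon-gamma response (chr11:53770014-53778374 on GRCm38), had 3 UMIs in Neg, 144 in AA and 38 in AA+Ab. It was found in 3 of 29, 32 of 84 and 18 of 51 cells. Its CPM was 16.5 times higher in AA than in Neg (5.55 to 81.2) and 0.523 times the AA level in AA+Ab (0.356 to 0.752). The guanylate-binding protein Gbp7 had 2, 33 and 4 UMIs, and its AA+Ab level was 0.240 times that of AA (0.0618 to 0.675). In both genes AA was the highest library.

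Of the immunity-related GTPases, Iigp1, Gm4951 and Igtp were seen almost only in AA among these cells. Iigp1, which attacks vacuoles of intracellular pathogens, had 0 UMIs in Neg, 49 in 16 cells of AA and 0 in AA+Ab. It was at least 5.63-fold higher in AA than in Neg, with a floor of 3 counts per library for the 0, and at most 0.121 times the AA level in AA+Ab. Gm4951, another member of this family, had 0, 26 and 1 UMIs, and Igtp 0, 17 and 0. Ifi47 had 2, 19 and 2 UMIs, and Irgm1 had 0, 8 and 4. Ifi47 and Irgm1 were thus not confined to AA, which also held the most UMIs in total. Near-identical copies of these GTPases share reads, so the split among them is uncertain. Iigp1 was also present in AA T cells at 38.0 CPM and in the remaining AA cells at 52.3 CPM, against 109 CPM here.

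Cd274 (PD-L1), the ligand of the T cell checkpoint PD-1, was not lower in AA+Ab than in AA. It had 5, 68 and 41 UMIs, or 32.1, 151 and 180 CPM, and its AA+Ab to AA ratio of 1.19 (0.790 to 1.79) included no difference. A single cell held 34 of its 68 UMIs in AA and another 23 of 41 in AA+Ab. Cxcl9 and Cxcl10, which draw CXCR3-bearing T cells, were sparse. Cxcl10 had 11, 45 and 7 UMIs, and AA+Ab stood at 0.308 times AA (0.117 to 0.688). Cxcl9 had 1, 6 and 0 UMIs here. Over all 205 cells Cxcl9 stood at 51.5 times Neg in AA (8.89 to 2071), a ratio that rests on 1 Neg UMI and is 17.2 with the floor of 3 counts. Most of its AA signal lay in the mixed and neutrophil-like clusters.

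**Figure D2:**
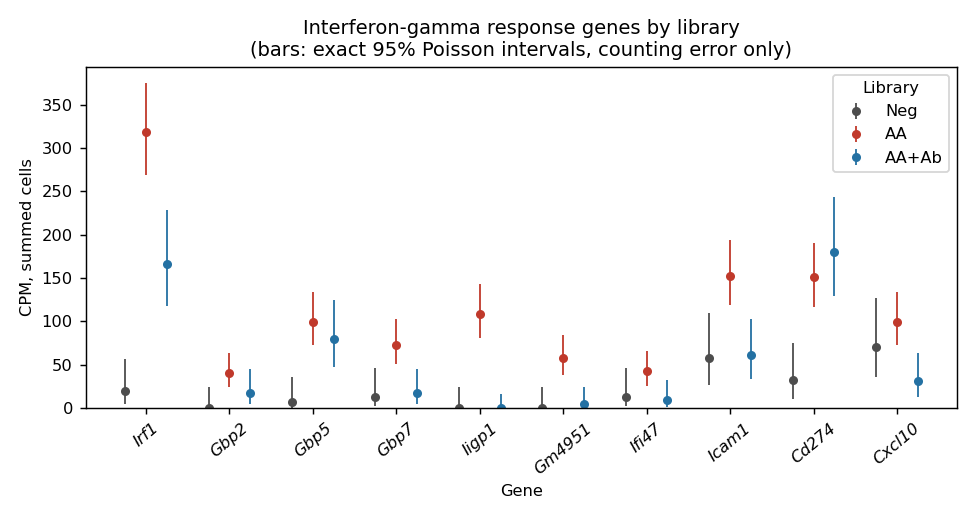
CPM of 10 interferon-gamma response genes in the summed 164 cells of each library, with exact 95% Poisson intervals for counting error. Irf1 stands at 319 CPM in AA against 19.3 in Neg and 167 in AA+Ab, and Cd274 is the gene of these that is not lower in AA+Ab than in AA.

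The promoters of this list are shown because its genes stood together. Interferon-gamma acts in part at gamma-activated sites of the form TTCNNNGAA, and type I interferon through interferon-stimulated response elements (ISRE), searched here as 2 runs of TTTC with 2 bases between them. Both were searched on either strand from 250 bases before to 50 bases after each transcription start of RefSeq (GRCm38.p6), and matches of the 2 forms can share bases where they adjoin. Of 17 list genes with a RefSeq promoter, 9 (52.9%) held TTCNNNGAA, 11 (64.7%) the ISRE form and 14 (82.4%) either. Over all 27025 genes with a promoter the shares were 9.55%, 3.99% and 12.9%. A list of type I interferon response genes, 23 of them with a promoter, gave 26.1%, 52.2% and 65.2%. High shares are thus not particular to the interferon-gamma list. In the sequences of Irf1, Gbp7 and Igtp, 200 bases that run 5′ to 3′ on the plus strand and end at the base before the start, capitals mark the matches.
Irf1 (chr11:53769814-53770013, plus strand): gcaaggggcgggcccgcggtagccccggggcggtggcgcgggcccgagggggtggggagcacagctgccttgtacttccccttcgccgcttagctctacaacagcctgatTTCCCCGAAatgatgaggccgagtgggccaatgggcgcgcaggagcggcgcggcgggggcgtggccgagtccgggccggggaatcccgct
Gbp7 (chr3:142530136-142530335, plus strand): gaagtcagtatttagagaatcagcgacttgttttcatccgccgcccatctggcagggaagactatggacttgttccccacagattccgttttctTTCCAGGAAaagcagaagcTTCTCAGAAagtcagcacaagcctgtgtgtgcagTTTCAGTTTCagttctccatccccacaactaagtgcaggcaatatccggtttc
Igtp (chr11:58199356-58199555, plus strand): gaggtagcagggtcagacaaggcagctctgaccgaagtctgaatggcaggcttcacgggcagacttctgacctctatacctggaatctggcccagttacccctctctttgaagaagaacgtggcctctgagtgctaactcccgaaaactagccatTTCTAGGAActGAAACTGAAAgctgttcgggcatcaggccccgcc
Irf1 held 1 match, 90 bases before this start, and none at the other of its 2 RefSeq starts. Gbp7 held 3, at 106, 87 and 53 bases, and Igtp 2, at 45 and 34 bases. The promoters of Ccl8, Cd274, Cd36 and Cxcl9 held none in this window, which says only that these letters are not there. A match is a description of sequence and not a measured binding site.

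Cell by cell, UMIs of the interferon-gamma list were found in many AA cells, but unevenly. Of the 732 AA UMIs, 93, 89 and 69 lay in 1 cell each. The median cell stood at 270 CPM in Neg, 728 in AA and 397 in AA+Ab. At least 3 UMIs of the list were found in 4 of 29 Neg cells, 45 of 84 AA cells and 15 of 51 AA+Ab cells, and at least 10 UMIs in 0, 19 and 4 cells. Cells of all 3 libraries overlapped, and 18 AA cells held no UMI of the list. Without the cell with most of the list's UMIs in each library, the ratios were 5.25 for AA to Neg and 0.407 for AA+Ab to AA.

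**Figure D3:**
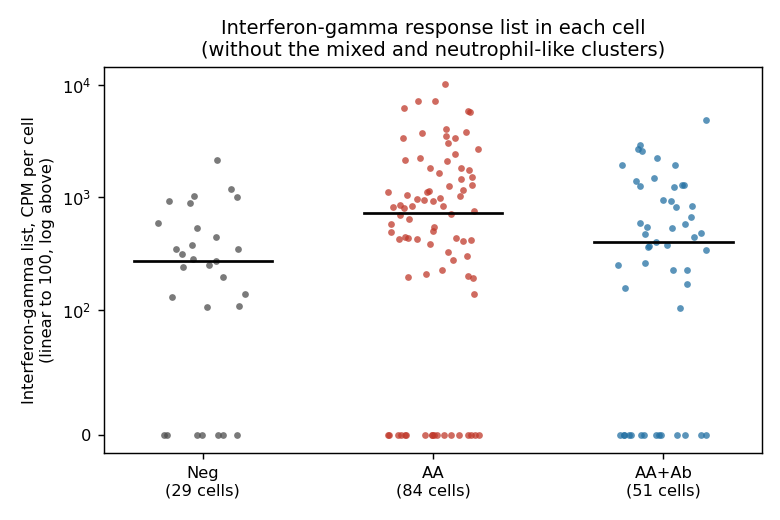
Interferon-gamma list level of each of the 164 cells in CPM (linear to 100, log above), by library, with the median as a line. The medians are 270 in Neg, 728 in AA and 397 in AA+Ab, and the AA cells reach 10122 CPM.

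The level differed between the clusters. In cluster 1 it was 337 CPM in Neg (17 UMIs), 2884 in AA (500 UMIs) and 1390 in AA+Ab (121 UMIs), so this cluster carried most of the list's AA UMIs and its 3 intervals did not overlap. In the other clusters of the 164 cells that had cells of all 3 libraries, the intervals of Neg and AA overlapped. In clusters 5 and 6, which are outside this set, they did not, at 1110 and 4881 CPM and at 86.5 and 1444 CPM. In cluster 2 the level was 854, 934 and 485 CPM, in the cDC2-like cluster 3 it was 231, 492 and 348 CPM, and in cluster 4 it was 586, 677 and 379 CPM. In the Langerhans-like cluster 7 it was 131, 70.8 and 143 CPM from 6, 2 and 7 UMIs. The 6 resident macrophage-like cells of AA stood at 1913 CPM (1497 to 2409).

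The type I interferon list differed less between libraries. It gave 2807, 3975 and 2952 CPM, with AA 1.42 times Neg (1.27 to 1.58) and AA+Ab 0.743 times AA (0.679 to 0.812). Higher in AA than in Neg were 7 of 17 genes, against 10.5% of all genes, among them Isg15 (6, 56 and 27 UMIs), a ubiquitin-like antiviral protein, and the sensor Ifih1. Lower in AA+Ab than in AA were 9 of 20, against 8.26% of all genes, among them Oasl1 (14, 132 and 31 UMIs) and Irf7. AA+Ab against Neg depended on the cells counted, at 2.10 over all 205 cells, 1.05 here and 0.930 without the Langerhans-like cells.

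MHC class I genes stood at 1.43 times Neg in AA (1.32 to 1.55), and AA+Ab at 0.721 times AA (0.673 to 0.773). B2m, the light chain of class I, had 213, 989 and 367 UMIs, 1.60 times higher in AA than in Neg (1.38 to 1.87). No gene of the 16 measured well enough reached 2 times in AA over Neg, while the peptide transporter Tap1, the immunoproteasome subunit Psmb10 and the class I regulator Nlrc5 were lower in AA+Ab than in AA, 3 of 16 against 8.26% of all genes. MHC class II, which defines antigen-presenting cells, had no steady direction. Its list gave 42299, 33815 and 35609 CPM, so AA stood at 0.799 times Neg (0.777 to 0.823), but at 1.98 times over all 205 cells and 1.17 times without the Langerhans-like cells. Of its 9 genes, only H2-Oa was past 2 times (lower in AA than in Neg, as were 5.7% of all genes), and 0 were in AA+Ab against AA.

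Class II levels differed more between kinds of cell than between libraries. The Langerhans-like cells held 78729, 66464 and 71779 CPM. The cDC2-like cells held 41817, 42425 and 34362 CPM. In cluster 1 the level was 17555 CPM in Neg, 30783 in AA and 18641 in AA+Ab, and in cluster 4 10463, 21887 and 10598 CPM. In these last clusters AA stood above both other libraries, beyond counting error.

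**Figure D4:**
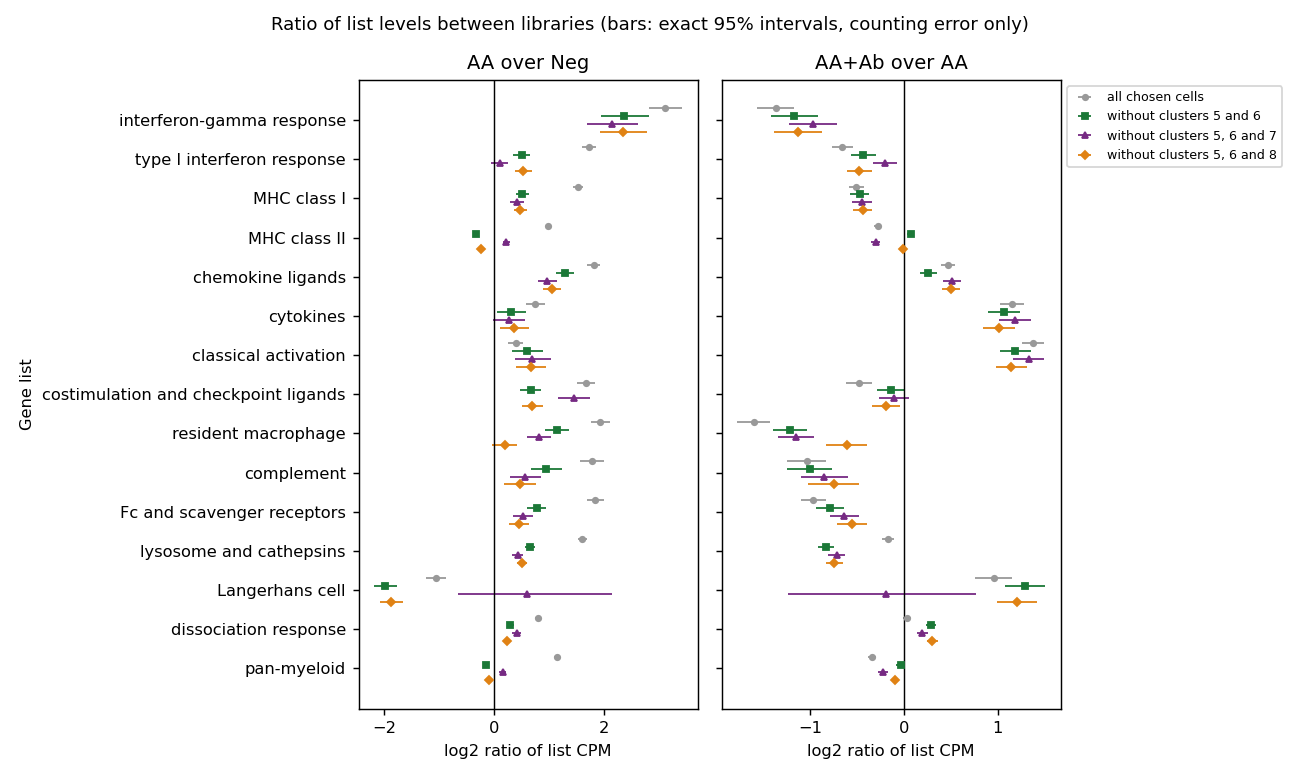
Log2 ratio of the summed CPM of 15 gene lists, AA over Neg on the left and AA+Ab over AA on the right, with exact 95% intervals, for all 205 chosen cells, for the 164 without clusters 5 and 6, and for those without clusters 5, 6 and 7 or without 5, 6 and 8. The bars cover counting error. The interferon-gamma list lies at 2.36 and -1.16 in the 164 cells, and the MHC class II list crosses 0 from one set of cells to another.

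Genes of resident dermal macrophages stood highest in AA, and for AA against Neg this rested on 6 cells. The list gave 1362, 3007 and 1303 CPM, so AA stood at 2.21 times Neg (1.91 to 2.56) and AA+Ab at 0.433 times AA (0.381 to 0.491). Higher in AA than in Neg were 9 of 13 genes, against 10.5% of all genes, and 0 were lower. Genes such as Folr2, with 3 Neg UMIs, passed the UMI minimum through AA, so these counts are a description. Lower in AA+Ab than in AA were 8 of 13, against 8.26% of all genes, and 0 were higher. The resident macrophage-like cluster 8, which was named by these markers, held 716 of the 1358 AA UMIs in its 6 AA cells, at 19022 CPM, and 69 of the 297 AA+Ab UMIs in its 1 AA+Ab cell, at 17950 CPM. Without it the levels were 1362, 1551 and 1017 CPM. AA then stood at 1.14 times Neg (0.974 to 1.34), with Maf alone of 7 genes called higher. Without cluster 8, 9.35% of all 4460 genes were higher in AA than in Neg and 5.81% lower. AA+Ab still stood at 0.656 times AA (0.561 to 0.764), with 4 of 8 genes lower and 0 higher, where 7.17% of all 4795 genes were lower and 5.36% higher. Leaving out instead the cell with most of the list's UMIs in each library gave 2.77 and 0.386.

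Within the other clusters the order of the libraries was not the same. In clusters 1, 3 and 4 AA and Neg differed by less than counting error, and AA+Ab was the lowest. In cluster 1 the level was 2281, 2285 and 1493 CPM, and in the cDC2-like cluster 3 it was 1300, 1337 and 670 CPM. In cluster 4 it was 2093, 2199 and 1230 CPM, from 25, 130 and 13 UMIs. In cluster 2 AA was the lowest, at 1086, 384 and 539 CPM from 14, 37 and 20 UMIs, and in the Langerhans-like cluster 7 AA+Ab was the highest, at 284, 106 and 774 CPM from 13, 3 and 38 UMIs.

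Mrc1, the mannose receptor CD206, had 47, 316 and 55 UMIs in 10, 41 and 17 cells. It was 2.32 times higher in AA than in Neg (1.70 to 3.22) and 1.29 times without cluster 8 (0.926 to 1.82). Its AA+Ab level was 0.345 times that of AA (0.254 to 0.460), and 0.482 times without cluster 8 (0.335 to 0.680). Mrc1 was therefore lower in AA+Ab than in AA in both sets. Folr2, a folate receptor of resident macrophages, had 3, 52 and 4 UMIs and Pf4 (CXCL4) had 2, 117 and 21, but without cluster 8 these were 3, 8 and 2 and 2, 10 and 9. The hemoglobin scavenger Cd163 had 13, 85 and 25 UMIs, 2.25 times higher in AA than in Neg (1.25 to 4.41) and 1.62 times without cluster 8 (0.875 to 3.23).

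After thinning to 1000 UMIs, the share of thinned chosen cells with at least 2 resident macrophage genes was 20% in Neg, 24.4% in AA and 12.7% in AA+Ab. In T cells it was 0.965%, 0.416% and 0.637%. Without thinning the share of all chosen cells was 42.5%, 65.6% and 33.3%, where T cells of median depth 6341.5, 4755 and 4895 UMIs gave 33.7%, 19.0% and 20.3%. Keratinocytes, which were deeper at a median of 12901, 11240 and 11237 UMIs, gave 78.3%, 70.4% and 71.8%. The chosen cells thus stood above T cells and below keratinocytes. Depth, own expression and background could not be told apart in the shares without thinning, which are a description.

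The chemokine Ccl8, which draws monocytes and T cells (chr11:82115185-82116799), led the genes higher in AA than in Neg. It had 0 UMIs in Neg, 370 in AA and 2 in AA+Ab, at least 42.5-fold higher in AA than in Neg. These 370 UMIs lay in 7 cells, and 236 of them in 1 cell of cluster 8, of which Ccl8 is a leading gene. Without this cluster 47 UMIs in 2 AA cells were left. Hal, the histidine-degrading enzyme histidase, had 1, 164 and 15 UMIs, and 1, 8 and 5 without cluster 8. Cd36, a scavenger receptor for lipids, was less bound to it, with 2, 135 and 32 UMIs in 2, 14 and 7 cells, and 2, 48 and 24 UMIs without cluster 8, where AA stood at 9.03 times Neg (2.37 to 76.7).

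Other leading genes of the same comparison were spread over more cells. Pltp, the phospholipid transfer protein, had 4, 156 and 20 UMIs in 3, 37 and 9 cells. It was 13.4 times higher in AA than in Neg (5.15 to 49.97) and 8.18 times without cluster 8 (3.08 to 30.7). The transcription factor Maf had 1, 69 and 24 UMIs in 1, 20 and 6 cells, a ratio of 23.8 (4.13 to 953) that rests on the 1 Neg UMI. On the lower side stood Rgcc, a regulator of the cell cycle, with 41, 3 and 7 UMIs, 20 of them in 1 Neg cell. Among the genes lowest in AA+Ab were Ms4a7 (45, 50 and 8 UMIs), the tetraspanin Cd81 (29, 49 and 6 UMIs) and the receptor Acvrl1 (18, 21 and 3 UMIs), but 1 Neg cell held 44 of the 45 Neg UMIs of Ms4a7.

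Complement genes stood in the same order, with a smaller part in cluster 8. The list gave 809, 1555 and 776 CPM, AA at 1.92 times Neg (1.59 to 2.34) and AA+Ab at 0.499 times AA (0.421 to 0.590). Without cluster 8, which held 237 of the 702 AA UMIs, the ratios were 1.39 (1.14 to 1.70) and 0.596 (0.492 to 0.718). Without the cell with most of the list's UMIs in each library, which in Neg held 49.2% of them, the ratios were 3.22 and 0.458. Higher in AA than in Neg were 7 of 10 genes, against 10.5% of all genes, and 5 of 9 without cluster 8, against 9.35%. Genes without Neg UMIs, such as C4b, passed the UMI minimum through AA alone, so these counts are a description. Properdin, Cfp, which stabilizes the alternative pathway, had 12, 116 and 26 UMIs, and AA stood at 3.07 times Neg without cluster 8 (1.68 to 6.15). The component C4b had 0, 46 and 5 UMIs, and 0, 13 and 0 without it. Cfb, factor B of the alternative pathway, was seen only in AA among these cells, with 23 UMIs in 7 cells.

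The C1q genes and Apoe rested on 1 Neg cell. C1qa had 165, 475 and 30 UMIs, C1qb 77, 291 and 13, and C1qc 56, 192 and 11. In Neg, 160 of the 165 C1qa UMIs, all of C1qb and C1qc, and 832 of 868 Apoe UMIs lay in 1 cell of cluster 1 with 14828 UMIs. Apoe, a lipid carrier, therefore stood at 0.504 times Neg in AA with this cell, and at 6.82 times when the top cell of each library was left out. C1qa likewise went from 0.993 to 21.5 times. In AA the C1q genes were found in 19, 18 and 15 cells, and AA+Ab stood at 0.125 (0.0835 to 0.181), 0.0885 (0.0466 to 0.154) and 0.113 (0.0557 to 0.208) times AA. C1qa and C1qb were used to choose the cells, and their values are a description.

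**Figure D5:**
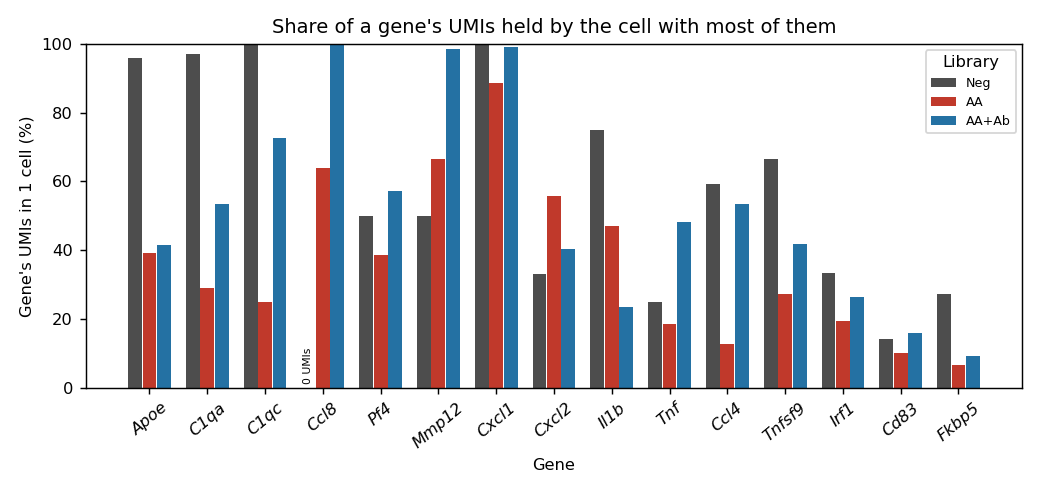
Share in percent of a gene's UMIs that lies in the 1 cell with most of them, for 15 genes and the 3 libraries among the 164 cells. Apoe and C1qa pass 95% in Neg, and Mmp12 and Cxcl1 pass 98% in AA+Ab, while Irf1, Cd83 and Fkbp5 stay below 34% in every library.

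Fc and scavenger receptors and lysosomal genes, which serve uptake and digestion, were also highest in AA, with and without cluster 8. The receptor list stood in AA at 1.71 times Neg (1.52 to 1.93) and in AA+Ab at 0.581 times AA (0.523 to 0.644), and at 1.37 (1.21 to 1.55) and 0.682 (0.610 to 0.762) without that cluster. Its members Fcgr3, an activating IgG receptor (19, 124 and 15 UMIs), and the lipid sensor Trem2 (9, 63 and 14 UMIs) were called in both comparisons. The lysosome list stood at 1.57 times Neg (1.47 to 1.67) and 0.562 times AA (0.530 to 0.596), and at 1.42 (1.33 to 1.52) and 0.599 (0.563 to 0.637) without it. Called higher in AA were 5 of 20 genes and 1 lower, against 10.5% and 5.7% of all genes, and 8 of 20 were lower in AA+Ab, against 8.26%. Psap, the prosaposin of lipid breakdown, had 143, 964 and 235 UMIs, and the protease Ctsc 45, 290 and 68. For the lysosome list AA+Ab against Neg turned from 2.71 over all 205 cells to 0.880 here.

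Genes of alternative activation, the state linked to tissue repair, were lower in AA+Ab than in AA. The list gave 7638, 8039 and 3610 CPM, with AA at 1.05 times Neg (0.986 to 1.12) and AA+Ab at 0.449 times AA (0.416 to 0.484). The place of Neg depended on the cells counted, since AA stood at 2.54 times Neg over all 205 cells (2.39 to 2.70) and at 0.793 times without the Langerhans-like cells (0.743 to 0.848). Apoe, with its 832 UMIs in 1 Neg cell, is part of this list. It alone stood at 5576 CPM in Neg, and at 256 CPM without that cell. The Neg level of the list, and its ratio of 1.05, thus rest largely on 1 cell. Retnla, the secreted protein RELM-alpha, had 148, 1524 and 425 UMIs in 4, 28 and 7 cells, 3.55 times higher in AA than in Neg (2.997 to 4.23). AA+Ab stood at 0.552 times AA (0.495 to 0.615). In AA+Ab 204 of its 425 UMIs lay in 1 cell, and without cluster 8 AA+Ab stood at 0.275 times AA (0.237 to 0.317). Retnla was also a leading gene of cluster 4, which held 4 of 29, 14 of 84 and 5 of 51 cells. The cells of cluster 4 carried 7.67%, 13.1% and 4.64% of the UMIs. The part of this cluster in the list was not tested. Arg1 was called higher in AA, but its 23 UMIs lay in 1 cell.

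Langerhans cell genes stood in the opposite order. The 6 genes gave 2897, 733 and 1794 CPM, so that AA stood at 0.253 times Neg (0.219 to 0.292) and AA+Ab at 2.45 times AA (2.11 to 2.84). All 6 were lower in AA than in Neg, against 5.7% of all genes, and 5 of 6 were higher in AA+Ab than in AA, against 4.99%. Cd207 had 279, 190 and 193 UMIs in 7, 5 and 8 cells. The Langerhans-like cells were 7 of 29, 5 of 84 and 8 of 51 cells, and without them the list stood at 1.51 times Neg in AA (0.630 to 4.40), so no difference was detectable among the other cells. Within the Langerhans-like cells the list stood at 9710, 10481 and 8064 CPM, with the intervals of Neg and AA overlapping. After thinning, 17.5%, 5.56% and 8.45% of the thinned chosen cells held at least 2 of the 6 genes, against 0.965%, 0.416% and 0.849% of T cells. Without thinning the chosen cells gave 30%, 8.60% and 22.2%, T cells 27.9%, 14.2% and 19.7%, and the deeper keratinocytes 45.2%, 40.1% and 36.2%. Depth, own expression and background could not be told apart in these shares, which are a description. Cacna1e, a calcium channel (69, 32 and 43 UMIs), and the class I-like H2-M5 (22, 10 and 16 UMIs) were among the 10 lowest genes in AA over Neg.

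Chemokine genes, summed over the 164 cells, were higher in both AA libraries than in Neg, but not in every cluster. The list gave 2255 CPM in Neg, 5514 in AA and 6606 in AA+Ab, with AA at 2.45 times Neg (2.19 to 2.74) and AA+Ab at 2.93 times Neg (2.61 to 3.30). Ccl4, a chemokine that draws T cells and monocytes, had 27, 766 and 307 UMIs in 4, 36 and 10 cells, 9.78 times higher in AA than in Neg (6.67 to 14.9) and 7.76 times higher in AA+Ab than in Neg (5.23 to 11.98). Ccl3, of the same kind, had 3, 133 and 65 UMIs, and AA+Ab stood at 0.968 times AA (0.708 to 1.31). Between AA+Ab and AA the list stood at 1.20 times (1.12 to 1.28), and at 0.965 without the top cell of each library, so no direction is given. Cluster 1 gave 4840, 7621 and 14943 CPM and cluster 2 gave 931, 4723 and 4177 CPM. In clusters 3 and 4 Neg was the highest, at 1011, 580 and 74.5 CPM and at 3181, 1894 and 1136 CPM.

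Inflammatory cytokines and genes of classical macrophage activation were highest in AA+Ab. The activation list gave 874, 1324 and 3018 CPM, with AA+Ab at 2.28 times AA (2.04 to 2.55) and 3.45 times Neg (2.87 to 4.18). Il1b, the interleukin released by inflammasomes, had 28, 225 and 286 UMIs in 4, 19 and 16 cells, with AA+Ab at 2.52 times AA (2.11 to 3.01). Tnf had 24, 59 and 160 UMIs, 5.37 times higher in AA+Ab than in AA (3.96 to 7.37) and 3.65 times without the top cells. Cxcl2, which draws neutrophils, had 170, 347 and 768 UMIs in 6, 15 and 13 cells, 4.38 times higher in AA+Ab (3.86 to 4.99) and 5.99 times without the top cells. Tnf and Cxcl2 were not higher in AA than in Neg, at 154, 131 and 702 CPM for Tnf and 1092, 768 and 3369 CPM for Cxcl2. Without the top cells both were still highest in AA+Ab. Other genes lay almost wholly in 1 cell. A single AA+Ab cell of 14864 UMIs held 75 of the 76 Mmp12 UMIs, 101 of 102 of Cxcl1, 31 of 33 of Olr1, all 19 of Il1a and 20 of 22 of Ccl22. Genes of the response to tissue dissociation were also highest in AA+Ab, at 13316, 16342 and 20028 CPM. In AA+Ab over AA 0 of 16 were past 2 times, against 4.99% of all genes higher. Within clusters 3, 4 and 7 the gap was wider, at 9393 CPM in AA and 18075 in AA+Ab, 7104 and 19777, and 11437 and 23499. In clusters 1 and 2 it was 20884 and 18227, and 16773 and 18242 CPM. The part of the dissociation genes in the cytokine levels, or in other differences between AA+Ab and AA, was not tested.

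The costimulatory and checkpoint ligands stood at 1741, 2757 and 2509 CPM. In AA over Neg, 5 of 9 genes were called higher (Cd80, Cd40, Cd83, Cd274 and Tnfsf9), against 10.5% of all genes, and 1, Havcr2, lower, against 5.7%. Tnfsf9, with 3 Neg UMIs, passed the UMI minimum through AA, so these counts are a description. Cd83, a marker of activated dendritic cells, had 77, 541 and 194 UMIs in 19, 52 and 27 cells, 2.42 times higher in AA than in Neg (1.90 to 3.12). Tnfsf9, the 4-1BB ligand, had 3, 84 and 105 UMIs in 2, 17 and 10 cells. It was 9.65 times higher in AA than in Neg (3.19 to 47.8), and 2.48 times higher in AA+Ab than in AA (1.84 to 3.34). Cd86 (99, 350 and 155 UMIs) differed little, at 1.22 times Neg in AA (0.973 to 1.54). Il15, a cytokine for CD8 T cells and NK cells, had 6, 40 and 5 UMIs in 5, 21 and 4 cells, 2.30 times higher in AA than in Neg (0.968 to 6.63) and 0.248 times the AA level in AA+Ab (0.0763 to 0.627).

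Ripk1, the kinase downstream of TNF receptors that the study set out to follow, had 4 UMIs in 3 Neg cells, 36 in 24 AA cells and 9 in 5 AA+Ab cells. It was 3.103 times higher in AA than in Neg (1.11 to 12.001), and AA+Ab stood at 0.495 times AA (0.210 to 1.05). Its partners in necroptosis were near the detection limit, with 1, 8 and 4 UMIs of Ripk3 and 3, 3 and 0 of Mlkl, so no difference could be read. Of 14 genes of the RIPK1 pathway, Ripk1 was the 1 called higher in AA over Neg, where 10.5% of all genes were, so the count does not exceed that share. The list stood at 1.36 times (1.22 to 1.51). In AA+Ab against AA, Tnfrsf1b and Rela were called higher, and Ripk1, Casp8 and Zbp1 lower, where 4.99% of all genes were higher and 8.26% lower. The interval of Ripk1 included no difference, and these few calls are a description that is not read against those shares.

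The axis that the antibody acts on was not abundant here. Cxcr4, the receptor of CXCL12, had 24, 57 and 25 UMIs in 7, 19 and 12 cells, and its AA+Ab level was 0.869 times that of AA (0.520 to 1.41). Cxcl12 itself had 1, 2 and 0 UMIs and its other receptor Ackr3 had 0, 1 and 2. A difference in this axis was not detectable at this depth.

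Among the 10 genes highest in AA+Ab over AA, Fkbp5 was found in the most cells. It is a co-chaperone of the glucocorticoid receptor, and it had 11, 15 and 66 UMIs in 6, 15 and 26 cells, with at most 3, 1 and 6 UMIs in a cell. AA+Ab stood at 8.71 times AA (4.92 to 16.4) and 4.10 times Neg (2.15 to 8.60). T cells of the same libraries gave 36.5, 49.8 and 62.2 CPM and the remaining cells 21.2, 27.7 and 46.4 CPM, a smaller step in the same direction. Ddit4, a stress-induced inhibitor of mTOR, had 7, 5 and 18 UMIs, 7.13 times higher in AA+Ab than in AA (2.55 to 24.6). The general myeloid list, for comparison, stood at 0.977 times AA in AA+Ab (0.946 to 1.008).

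Over all 205 cells more genes were called in each comparison. In AA over Neg, 14.4% of 7642 genes were higher and 19.1% lower. The lowest included Ngp and Camp of neutrophil precursors (134 and 116 Neg UMIs) and Wif1 and Kcnip1 (125 and 175 Neg UMIs), against at most 3 UMIs in AA and at most 1 UMI of each among the 164 cells of a library. AA+Ab over AA gave 8.87% of 6856 genes higher and 9.63% lower, and AA+Ab over Neg 12% of 7097 higher and 18.3% lower. Melanocyte genes led the higher side of both, with 11, 7 and 1205 UMIs of Pmel and 35, 39 and 1797 of Dct, against 9, 4 and 18 and 18, 19 and 29 among the 164 cells. Interferon-gamma genes stood in the same order here, with 15 of 16 higher in AA than in Neg, 16 of 19 lower in AA+Ab than in AA and 4 of 7 higher in AA+Ab than in Neg. Their medians were 2.97, -1.71 and 2.04 on the log2 scale, against -0.15, -0.05 and -0.17 over all genes.

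Other immune subsets were also counted. At least 2 cDC2 genes were found in 57.5%, 52.7% and 40.3% of the chosen cells, but in 63.5%, 59.0% and 59.5% of T cells, so this share does not set the chosen cells apart. Ccr7, the receptor of migrating dendritic cells, was seen in 0 of 205 chosen cells, which allows a share of cells with a UMI of up to 1.46%. Xcr1 and Clec9a, which mark cross-presenting cDC1, were found together in 0, 2 and 1 cells. At least 2 of 8 cDC1 genes were found in 45%, 52.7% and 33.3% of the chosen cells, in 8.01%, 3.71% and 4.82% of T cells and in 10.8%, 8.46% and 9.42% of keratinocytes. After thinning this share was 7.5%, 14.4% and 9.86% of the chosen cells. The neutrophil share after thinning was 12.5%, 3.33% and 23.9%, against at most 0.212% of T cells, and S100a8 and S100a9 occurred together in 5, 2 and 14 chosen cells. Without thinning, at least 2 melanocyte genes were seen in 60%, 22.6% and 41.7% of the chosen cells. T cells gave 40.4%, 14.8% and 31.9%, and keratinocytes 43.4%, 18.8% and 39.6%. Melanocyte RNA was thus found in cell types that should lack it, most in Neg.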

How the data were processed

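Droplet-based 3′ single-cell RNA sequencing (10x Genomics v3.1 chemistry) was run on 1 library per group of pooled dorsal skin (Neg, AA and AA+Ab). The authors made the deposited files, which are matrices of UMI counts, not normalized. The submitters' processing notes name Cell Ranger 7.2.0, FastQC 0.11.7 and mm10.

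Barcodes with at most 10% mitochondrial UMIs and at least 200 genes were kept, which left 26847 cells, and the chosen cells held between 785 and 206017 UMIs. The members and all gene lists were chosen with earlier results of these data known. Counts were summed per library and divided by the cells' UMIs. Clopper-Pearson shares, exact Poisson levels and exact conditional ratios are given with 95% intervals, which cover counting error only, and no test was possible with 1 library per group. Clustering of the chosen cells used 2000 variable genes, 15 principal components, 15 neighbours and a resolution of 0.8 in scanpy 1.11.5 with igraph 0.11.9 (Python 3.11.15, numpy 2.4.6, scipy 1.17.1, pandas 2.3.3, matplotlib 3.10.9). Doublets were scored with Scrublet and removed only as an alternative, which took out 1, 3 and 3 chosen cells. The genes named were the 10 highest and 10 lowest ratios of each comparison among genes with at least 20 UMIs, outside marker, T cell, keratin and mitochondrial genes. From each list the 2 to 4 genes with most UMIs and those past 2 times were added, and Ripk1, Ripk3, Mlkl, Cxcr4, Ackr3, Il15 and Cd274 were named at any count. Leading genes of clusters, Ccr7 and Xcr1 were named after their values were seen. Trgc1, Cxcl11, Mx1, Mx2, Clec7a, Mb21d1 and Sting1 were not analysed here, and some list genes are not reported here by name. Promoters are from RefSeq (GRCm38.p6) and gene positions from GENCODE vM21. The steps were tested on simulated data with known changes. Alternatives varied the marker rule, the limits on keratin and mitochondrial UMIs, the UMI minimum, the denominator, the weighting of cells and the clusters counted.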

Additional observations from a re-analysis of the deposited data

How the results depend on the processing

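The shares, the interferon-gamma and MHC class II lists and the gene counts were computed over all 205 chosen cells and again under other settings. Over all 205 cells the mixed cluster held a larger share of the UMIs in Neg than in AA or AA+Ab. The sizes of list ratios over all cells are therefore a description. Settings that leave out a cluster or the deepest cells, and the mean without clusters 5 and 6, were chosen after the data were seen. The interferon-gamma list stood in the same order in all of them. The MHC class II list did not, and its direction differed with the cells counted. Removing the cells with the highest doublet scores kept every one of the 15 main values within its counting interval or within 1.5 times. No paired analysis was possible because the labels give no replicate numbers and each group is 1 library. With 1 library per group, the spread between mice was not measured, and 29 to 84 cells a library limit every gene level to the few cells that hold it.

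The share of chosen cells in Neg, 0.608%, was 0.395 with 3 markers asked for, 0.334 without clusters 5, 6 and 7 and 0.286 after thinning to 1000 UMIs (percent of kept cells). The share of chosen cells in AA, 0.891%, was 0.642 with Lyz2 dropped from the rule, 0.546 with 3 markers asked for and 0.522 after thinning to 1000 UMIs (percent of kept cells). The share of chosen cells in AA+Ab, 0.732%, was 0.366 with Lyz2 dropped from the rule, 0.285 with 3 markers asked for, 0.519 without clusters 5 and 6, 0.437 without clusters 5, 6 and 7, 0.508 without clusters 5, 6 and 8 and 0.341 after thinning to 1000 UMIs (percent of kept cells).

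For AA over Neg, the log2 ratio of the interferon-gamma response list, 3.12, was 2.06 without cluster 6, 2.37 without clusters 5 and 6, 2.14 without clusters 5, 6 and 7, 2.34 without clusters 5, 6 and 8, 1.93 without cells over 15000 UMIs, 1.60 as the mean of the CPM of each cell and 1.76 as that mean without clusters 5 and 6. For AA+Ab over AA, the log2 ratio of the interferon-gamma response list, -1.36, was -0.90 without cluster 6, -0.97 without clusters 5, 6 and 7, -1.12 without clusters 5, 6 and 8, -0.81 without cells over 15000 UMIs, -0.78 as the mean of the CPM of each cell and -0.89 as that mean without clusters 5 and 6. For AA+Ab over Neg, the log2 ratio of the interferon-gamma response list, 1.76, was 1.15 without cluster 6, 1.20 without clusters 5 and 6, 1.17 without clusters 5, 6 and 7, 1.22 without clusters 5, 6 and 8, 1.12 without cells over 15000 UMIs, 0.82 as the mean of the CPM of each cell and 0.87 as that mean without clusters 5 and 6.

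For AA over Neg, the log2 ratio of the MHC class II list, 0.98, was 0.29 with Lyz2 dropped from the rule, 0.40 with 3 markers asked for, -0.18 without cluster 6, -0.32 without clusters 5 and 6, 0.22 without clusters 5, 6 and 7, -0.24 without clusters 5, 6 and 8, -0.18 without cells over 15000 UMIs, 0.014 as the mean of the CPM of each cell, -0.30 as that mean without clusters 5 and 6, 1.13 with a keratin limit of 0.5% and 1.07 without cells with B cell genes. For AA+Ab over AA, the log2 ratio of the MHC class II list, -0.28, was 0.082 with Lyz2 dropped from the rule, -0.23 with 3 markers asked for, -0.13 without cluster 6, 0.075 without clusters 5 and 6, -0.0048 without clusters 5, 6 and 8, -0.18 without cells over 15000 UMIs, -0.46 as the mean of the CPM of each cell, -0.14 as that mean without clusters 5 and 6, -0.36 without cells with B cell genes and -0.18 with a mitochondrial limit of 5%. For AA+Ab over Neg, the log2 ratio of the MHC class II list, 0.71, was 0.37 with Lyz2 dropped from the rule, 0.17 with 3 markers asked for, -0.31 without cluster 6, -0.25 without clusters 5 and 6, -0.078 without clusters 5, 6 and 7, -0.24 without clusters 5, 6 and 8, -0.36 without cells over 15000 UMIs, -0.45 as the mean of the CPM of each cell, -0.44 as that mean without clusters 5 and 6, 0.82 with a keratin limit of 0.5%, 0.84 with a mitochondrial limit of 5% and 0.66 with mitochondrial, ribosomal, hemoglobin and keratin genes out of the total.

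Genes higher in AA over Neg, 1099 over all cells, numbered 716 with Lyz2 dropped from the rule, 725 with 3 markers asked for, 529 without cluster 6, 493 without clusters 5 and 6, 351 without clusters 5, 6 and 7, 417 without clusters 5, 6 and 8, 504 without cells over 15000 UMIs and 623 at a minimum of 50 UMIs. Genes lower in AA over Neg, 1456 over all cells, numbered 621 with Lyz2 dropped from the rule, 728 with 3 markers asked for, 291 without cluster 6, 267 without clusters 5 and 6, 245 without clusters 5, 6 and 7, 259 without clusters 5, 6 and 8, 281 without cells over 15000 UMIs and 664 at a minimum of 50 UMIs. Genes higher in AA+Ab over AA, 608 over all cells, numbered 345 with Lyz2 dropped from the rule, 385 with 3 markers asked for, 323 without cluster 6, 251 without clusters 5 and 6, 228 without clusters 5, 6 and 7, 257 without clusters 5, 6 and 8, 328 without cells over 15000 UMIs, 235 at a minimum of 50 UMIs and 1063 at a minimum of 10 UMIs. Genes lower in AA+Ab over AA, 660 over all cells, numbered 416 without clusters 5 and 6, 398 without clusters 5, 6 and 7, 344 without clusters 5, 6 and 8, 433 without cells over 15000 UMIs, 260 at a minimum of 50 UMIs and 1047 at a minimum of 10 UMIs. Genes higher in AA+Ab over Neg, 852 over all cells, numbered 359 with Lyz2 dropped from the rule, 286 with 3 markers asked for, 255 without cluster 6, 257 without clusters 5 and 6, 217 without clusters 5, 6 and 7, 246 without clusters 5, 6 and 8, 272 without cells over 15000 UMIs and 437 at a minimum of 50 UMIs. Genes lower in AA+Ab over Neg, 1299 over all cells, numbered 540 with Lyz2 dropped from the rule, 515 with 3 markers asked for, 178 without cluster 6, 146 without clusters 5 and 6, 159 without clusters 5, 6 and 7, 150 without clusters 5, 6 and 8, 183 without cells over 15000 UMIs and 572 at a minimum of 50 UMIs.

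Of the 8 other lists recomputed under these settings, 4 stood over 2 times higher in AA+Ab over Neg across all cells, and 3 of these turned to log2 ratios below 0. The resident macrophage, complement and Fc and scavenger receptor lists, under 2 times over all cells, also turned below 0 under some settings. The lysosome and cathepsins list, 1.44 over all cells, was -0.19 without cluster 6, -0.18 without clusters 5 and 6, -0.28 without clusters 5, 6 and 7, -0.23 without clusters 5, 6 and 8 and -0.20 without cells over 15000 UMIs. The type I interferon response list, 1.07 over all cells, was -0.097 without clusters 5, 6 and 7 and -0.085 as that mean without clusters 5 and 6. The MHC class I list, 1.02 over all cells, was -0.036 without clusters 5, 6 and 7. The cause was not tested.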
